A study of Drosophila melanogaster with 12 samples.

Results

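Calcium signalling in the fly midgut was followed through 10 genes, SERCA, Stim, Orai (listed by its older name olf186-F), Itpr, TrpA1, Piezo, CaMKII, CanA-14F, CrebB and Pde1c, of the 8802 genes counted. They were chosen by symbol as calcium channels, store proteins and effectors of the gut stem cell, plus Pde1c. The deposited table held 9 of them under the listed symbol and olf186-F as Orai. All 10 passed the filter on low counts that left 7992 genes for testing. Itpr rose and Piezo fell in cells overexpressing SvbACT, a form of the transcription factor Shavenbaby (Svb), and Piezo rose in cells overexpressing the form called SvbREP. In the svb RNAi-labelled libraries, Orai, Itpr and CrebB were lower than in control, and Pde1c and CaMKII higher.

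Cytosolic calcium is kept low by the pump SERCA, which loads the endoplasmic reticulum, and rises when the inositol trisphosphate receptor Itpr releases that store. Stim senses an empty store and opens Orai in the plasma membrane, while TrpA1 and Piezo admit cations in response to irritants or to mechanical force. Calmodulin then passes the signal to the kinase CaMKII, the phosphatase calcineurin and the phosphodiesterase Pde1c, and CREB proteins carry it to transcription. In the adult midgut, calcium in stem cells is known to set how fast they divide.

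RNA-seq gene counts were made from cells sorted as intestinal stem cells from posterior midguts (regions R3 to R5) of virgin females, 9 days old after 6 days at 29 °C. All 4 groups of 3 libraries shared the driver genotype esg-Gal4, UAS-GFP/+ with tubGal80TS, a temperature-sensitive Gal80 that holds Gal4 off until the shift. The control had tubGal80TS/+ and no transgene against or for svb, from a cross to the strain Canton-S. The backgrounds of the transgene strains are not given in the sources used here, so background and transgene cannot be told apart in the comparisons against control. The other groups had tubGal80TS over UAS-SvbRNAi, over UAS-SvbACT::GFP (SvbACT), or over UAS-Svb3Kmut::GFP (SvbREP), and the labels describe both overexpressed forms as constitutive. The esg driver is active in stem cells and in their enteroblast daughters, each library pooled more than 20 females, and control cells carried no hairpin and no second GFP fusion.

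Svb is made by the ovo gene, whose counts were 4, 64 and 3 in the control libraries and 225, 206 and 209 in the svb RNAi-labelled libraries. That is the reverse of a knockdown, and gene totals do not separate endogenous from transgene reads, so each direction below for that group rests on its label. In SvbACT ovo held 8803 to 11901 counts, and in SvbREP 6145 to 12642. Libraries held 2965852 to 6575392 counts, so 3 counts, taken as the floor, stood for 0.482 to 1.02 counts per 1000000 counts (CPM), for counting error only. Of 8 progenitor markers 7 were in the table and summed to 7377 to 9016 CPM in control, 5217 to 6368 in the svb RNAi-labelled libraries, 8362 to 10740 in SvbACT and 6068 to 7350 in SvbREP. Of the 7 markers 5, Dl, Sox21a, Sox100B, klu and zfh2, were lower in the svb RNAi-labelled libraries than in control, and esg was lower in SvbREP. By the edgeR test described below, 13.7% of all genes were lower in the svb RNAi-labelled libraries and 2.70% in SvbREP, each against control. For SvbACT, 9.15% of all genes were called in either direction. In SvbACT stg, which encodes the phosphatase that starts mitosis, was the 1 marker called, higher at 103 CPM against 13.5 in control (log2 2.93, edgeR adjusted p = 1.98e-05). All 12 enteroendocrine markers were in the table, and their sum was above 1000 CPM in control replicate 2, svb RNAi replicate 1 and SvbREP replicates 1 and 2. These 4 libraries are called enteroendocrine-high below. Most of the mean enteroendocrine sum was IA-2 and NPF, at 290 and 202 of 689 CPM in control. In SvbREP these were 1331 and 522.5 of 2303 CPM. The 11 enterocyte markers summed to 402, 779 and 609 CPM in control replicates 1, 2 and 3, so replicate 2 was the highest control there too. The visceral muscle markers summed to 359.5 to 415 CPM in control, 97.0 to 129.8 in the svb RNAi-labelled libraries, 73.6 to 127.7 in SvbACT and 355 to 443 in SvbREP. Most of that sum was Zasp52. Without Zasp52 the other 11 markers summed to 41.8 to 42.8 CPM in control and 26.2 to 40.0 in the svb RNAi-labelled libraries. They summed to 22.9 to 37.1 in SvbACT and 18.4 to 47.5 in SvbREP. Among them the muscle gene TpnC73F was at 0 in all 12 libraries, and Mhc held 0.55 to 11.4 CPM. The part of these cells in the results below was not tested. Where the enteroendocrine-high libraries were left out, SvbREP kept 1 library, so marker level and library cannot be told apart there. A call lost in that way can also reflect the smaller number of libraries. In bulk samples fewer cells of a type and less RNA per cell cannot be told apart.

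A gene was called when its edgeR quasi-likelihood p, adjusted over all 7992 genes, was under 0.05. Among the 4 groups 7 of the 10 genes were called, Itpr, Piezo, Orai, Pde1c, CrebB, CaMKII and Stim, against 28.8% of all genes tested. The 10 genes were chosen with earlier results of these data known. Their shares here and below therefore describe these genes and test nothing about calcium genes in general. TrpA1 (edgeR adjusted p = 0.0786), CanA-14F (0.147) and SERCA (0.282) were not. In the svb RNAi-labelled libraries against control, 2 of the 10 genes were higher and 3 lower, where 20.4% of all genes were called, 6.74% higher and 13.7% lower. Of all the calls in that comparison 33.0% were higher, and 48.2% with upper quartile scaling. In SvbACT against control 1 was higher and 1 lower, where 9.15% of all genes were called, 3.92% higher and 5.23% lower. In SvbREP against control 1 was higher and 1 lower, where 4.05% were called, 1.35% higher and 2.70% lower. These 3 comparisons share the control libraries. Between SvbACT and SvbREP 2 were higher in SvbACT and 1 in SvbREP, where 13.1% were called, 6.51% higher and 6.63% lower. Against the svb RNAi-labelled libraries, 7 of the 10 genes were called in SvbACT, where 17.4% of all genes were, and 6 in SvbREP, where 22.8% were. The CPM of the compared groups did not overlap for 5 of the 10 genes in the svb RNAi-labelled libraries against control, where 35.6% of all genes did not, for 4 in SvbACT against control (25.0%) and for 3 in SvbREP against control (19.3%). It did not overlap for 4 between SvbACT and SvbREP (27.9%), for 8 between SvbACT and the svb RNAi-labelled libraries (34.2%) and for 6 between SvbREP and the latter (37.6%). The median log2 fold change of the 10 genes was -0.12 in the svb RNAi-labelled libraries, -0.02 in SvbACT and -0.14 in SvbREP, each against control, beside 0.02, 0.01 and -0.003 for all genes tested.

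**Figure D1:**
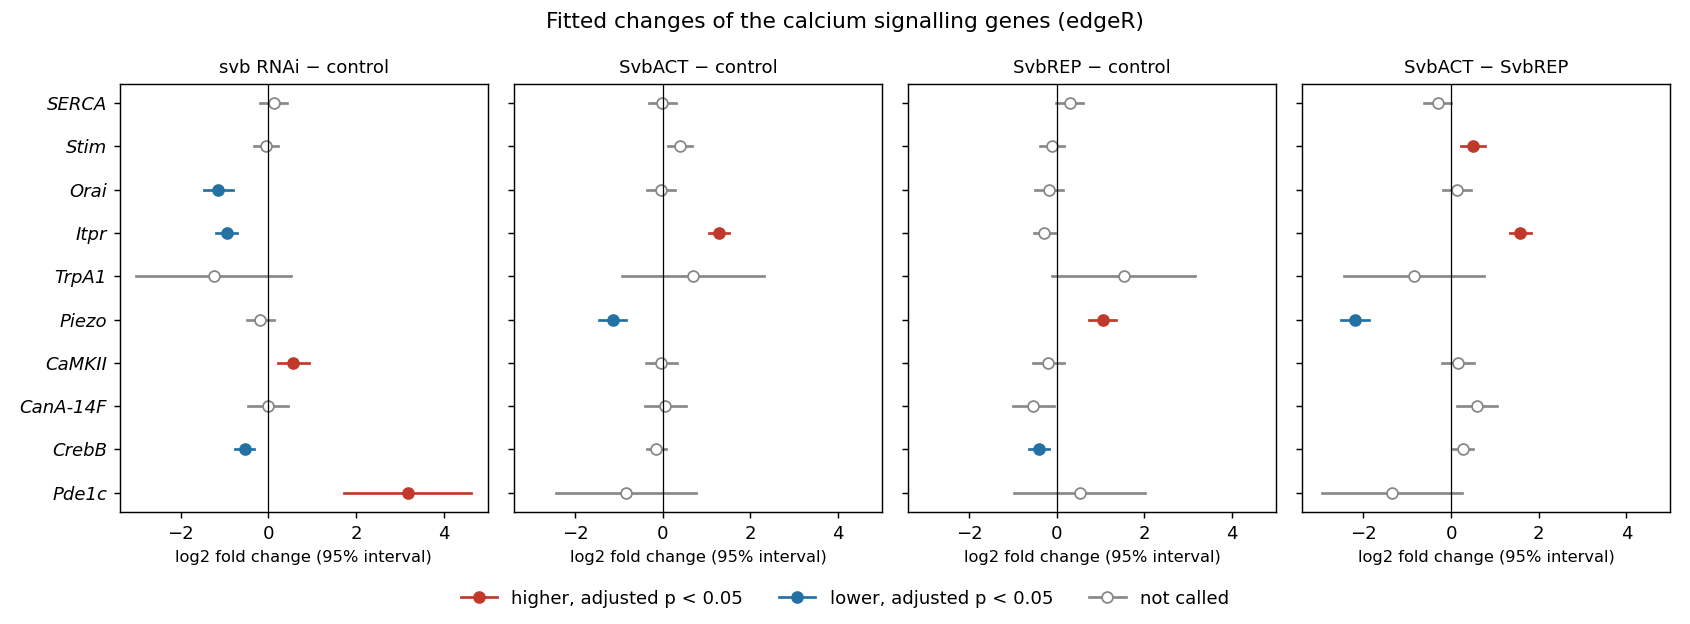
Fitted log2 fold changes of the 10 calcium genes (x axis, with 95% intervals) in 4 comparisons, fitted with edgeR on 3 libraries per group; filled points were called. Itpr and Piezo lie on opposite sides of 0 in the SvbACT panel, at 1.29 and -1.14, and again in SvbACT against SvbREP, at 1.58 and -2.19.

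Itpr (FBgn0010051, chromosome 3R, 5517117 to 5539411, plus strand), the store release channel, had the smallest p of the 10 genes among the 4 groups (edgeR adjusted p = 3.65e-09). Its CPM was 162, 204 and 159 in control replicates 1, 2 and 3, and 417, 427 and 436 in SvbACT. In the svb RNAi-labelled libraries it was 92.1, 90.8 and 88.6, and in SvbREP 154, 142 and 133. All SvbACT libraries lay above all others, and all svb RNAi-labelled libraries below all others. Against control, Itpr was 2.44-fold higher in SvbACT (log2 1.29, SE 0.11, edgeR adjusted p = 1.78e-06). It was 1.93-fold lower in the svb RNAi-labelled libraries (log2 -0.95, SE 0.11, edgeR adjusted p = 1.42e-05). SvbREP was below control in every library, without a call after adjustment (log2 -0.29, 95% interval -0.53 to -0.05, edgeR adjusted p = 0.179). SvbACT exceeded SvbREP 2.98-fold (edgeR adjusted p = 1.53e-07) and the svb RNAi-labelled libraries 4.71-fold (2.07e-09), and SvbREP exceeded the latter by 0.66 in log2 (5.06e-04). Without the enteroendocrine-high libraries, an alternative chosen after seeing the data, the log2 fold changes against control were 1.41 in SvbACT (edgeR adjusted p = 5.90e-06) and -0.85 in the svb RNAi-labelled libraries (2.72e-04). That alternative leaves 1 SvbREP library, which is assumed to vary like the other groups.

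SERCA (FBgn0263006, chromosome 2R, 23925077 to 23935884, minus strand), the pump that refills the store, did not pass the test in any comparison. Its CPM was 293.5, 385 and 325 in control and 356, 379 and 357 in the svb RNAi-labelled libraries. SvbACT libraries held 320.3, 377 and 299.6, and SvbREP libraries 484, 426 and 325. The groups overlapped, with the highest levels in the enteroendocrine-high SvbREP libraries. The 95% interval of the log2 difference from control was -0.18 to 0.43 in the svb RNAi-labelled libraries and -0.01 to 0.60 in SvbREP. Between SvbACT and SvbREP the log2 difference was -0.31 (edgeR adjusted p = 0.198). Leaving out SvbREP replicate 3 made it a call, at -0.45 (edgeR adjusted p = 0.0365), and leaving out the enteroendocrine-high libraries brought it to 0.02 (0.972). The exons of CG2812 cover 16% of those of SERCA, but CG2812 had at most 51 counts where SERCA had at least 1370.

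Stim (FBgn0045073, chromosome X, 15934495 to 15940451, minus strand), the store sensor, was highest in SvbACT. Its CPM was 109.5, 89.95 and 91.2 in control and 124, 124.5 and 133 in SvbACT, which do not overlap. In the svb RNAi-labelled libraries it was 88.4, 88.1 and 102, and in SvbREP 87.6, 79.7 and 102, within the range of control or just below it. SvbACT lay 0.39 above control in log2 (SE 0.13, edgeR adjusted p = 0.0676). With the replicate number as a block, which assumes a pairing that the labels do not state, the same value was called (edgeR adjusted p = 0.0324). It was also called without control replicate 1 (log2 0.49, edgeR adjusted p = 0.0453) and with DESeq2 (0.39, DESeq2 adjusted p = 0.0457). SvbACT exceeded SvbREP by 0.50 in log2 (SE 0.13, edgeR adjusted p = 0.0162) and the svb RNAi-labelled libraries by 0.45 (0.0201). The first call was lost without SvbACT replicate 3 (0.47, edgeR adjusted p = 0.0613), SvbREP replicate 1 (0.47, 0.0579), SvbREP replicate 2 (0.42, 0.0788) or the enteroendocrine-high libraries (0.31, 0.375). The second was lost without svb RNAi replicate 1 (edgeR adjusted p = 0.0736), svb RNAi replicate 2 (0.0781) or SvbACT replicate 3 (0.0712).

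Orai (FBgn0041585, chromosome 2R, 17843442 to 17860582, plus strand), the plasma membrane channel that Stim opens, was lower in the svb RNAi-labelled libraries than in each other group. Its CPM was 90.3, 77.05 and 88.5 in control and 38.4, 35.6 and 42.0 in the svb RNAi-labelled libraries. SvbACT held 92.1, 73.0 and 83.9, and SvbREP 62.8, 90.7 and 73.0. The svb RNAi-labelled libraries lay below all 9 others, which overlapped among themselves. The fall against control was 2.21-fold (log2 -1.14, SE 0.15, 95% interval -1.47 to -0.81, edgeR adjusted p = 5.01e-05). SvbACT and SvbREP exceeded the svb RNAi-labelled libraries by 1.10 (edgeR adjusted p = 8.05e-05) and 0.97 (2.68e-04) in log2. Against control, SvbACT gave a log2 fold change of -0.04 (95% interval -0.36 to 0.28, edgeR adjusted p = 0.939) and SvbREP one of -0.17 (0.592). Stim, its partner, was at -0.06 in log2 in the svb RNAi-labelled libraries against control (95% interval -0.33 to 0.21, edgeR adjusted p = 0.816).

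**Figure D2:**
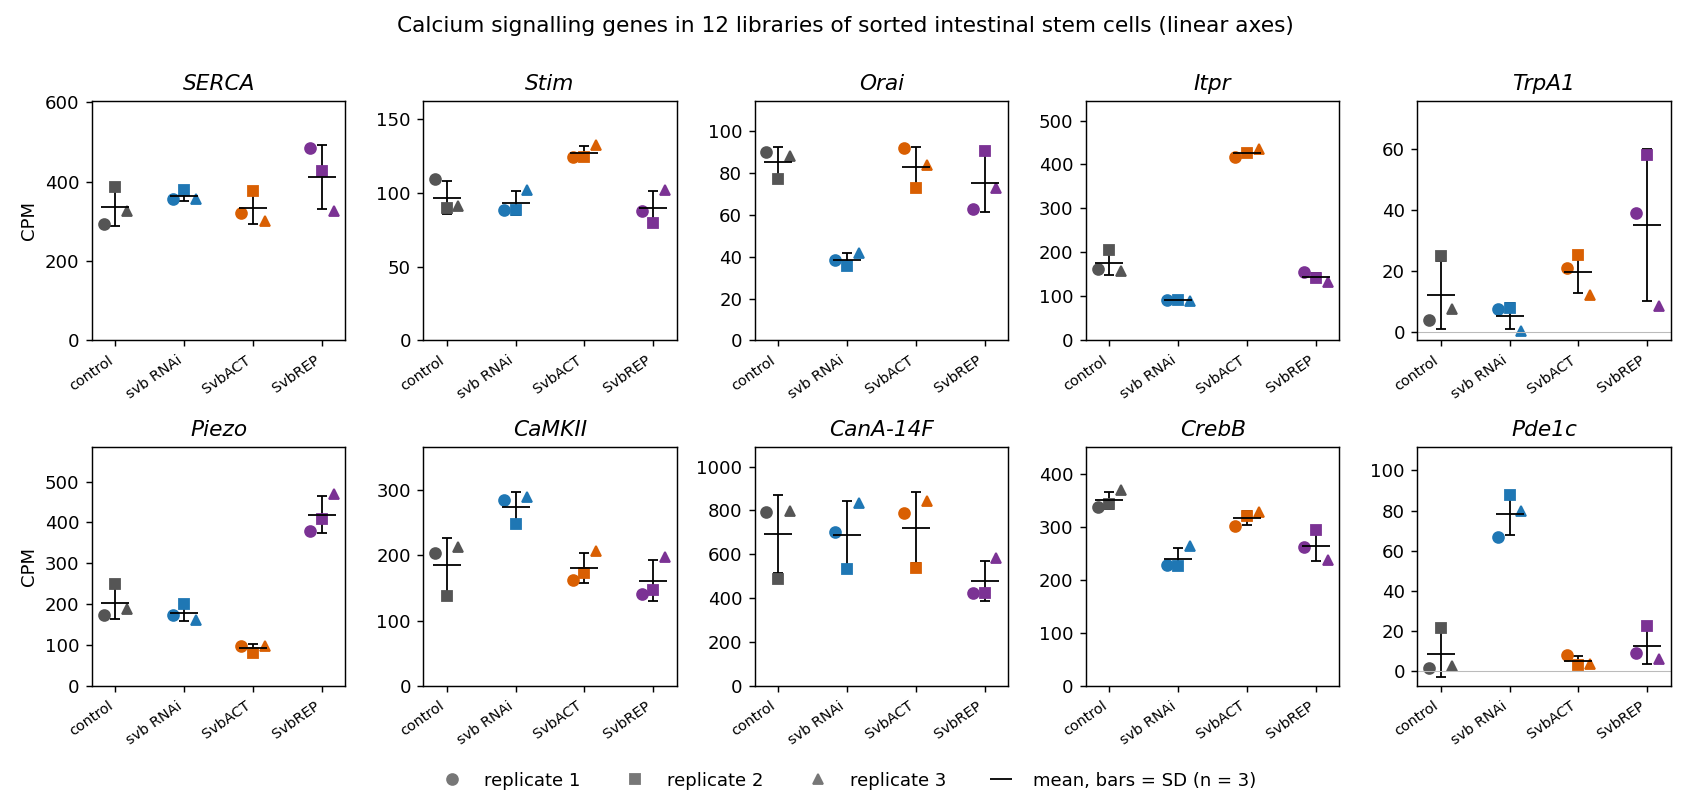
CPM of each calcium gene (y axes, linear, one scale per gene) in the 12 libraries by group (x axis); symbols give the replicate number, and bars the mean and SD of 3 libraries. Itpr in SvbACT (417 to 436 CPM) and Piezo in SvbREP (379 to 469 CPM) stand above every library of the other groups.

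Piezo (FBgn0264953, chromosome 2L, 8163073 to 8190137, plus strand), a channel opened by membrane stretch, was highest in SvbREP and lowest in SvbACT. Its CPM was 174, 249 and 187 in control, and 174, 201 and 160.4 in the svb RNAi-labelled libraries. SvbACT held 98.2, 80.5 and 97.7, and SvbREP 379, 409 and 469. Control and the svb RNAi-labelled libraries overlapped, and both overexpression groups lay clear of them on opposite sides. Against control, SvbREP was 2.06-fold higher (log2 1.04, SE 0.14, edgeR adjusted p = 4.68e-04). SvbACT was 2.21-fold lower (log2 -1.14, SE 0.15, edgeR adjusted p = 1.04e-04). The direct comparison gave SvbACT 4.55-fold below SvbREP (log2 -2.19, SE 0.15, edgeR adjusted p = 1.04e-07). The svb RNAi-labelled libraries had a log2 fold change of -0.19 against control (95% interval -0.50 to 0.12, edgeR adjusted p = 0.427). SvbREP replicate 3, the highest for Piezo, was the SvbREP library with the lowest enteroendocrine sum (552 CPM). Without the enteroendocrine-high libraries the log2 fold change against control was -0.97 in SvbACT (edgeR adjusted p = 5.25e-04). In SvbREP it was 1.38, resting on the 1 SvbREP library that remains, replicate 3.

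TrpA1 (FBgn0035934, chromosome 3L, 8894404 to 8905200, minus strand), a channel gated by oxidants and irritants, was scarce and uneven. Its counts were 21, 139 and 46 in control, 34, 43 and 1 in the svb RNAi-labelled libraries, 90, 125 and 69 in SvbACT and 115, 211 and 48 in SvbREP. As CPM the control libraries held 3.92, 24.9 and 7.40, and the SvbREP libraries 39.0, 58.0 and 8.40. The high libraries of these groups were control replicate 2 and SvbREP replicates 1 and 2, all enteroendocrine-high, and the groups overlapped. Replicate 1 of svb RNAi, also enteroendocrine-high, held 7.49 CPM, beside 7.69 and 0.177 in svb RNAi replicates 2 and 3. SvbACT, which has no enteroendocrine-high library, held 21.0, 25.3 and 12.1 CPM. Enteroendocrine markers summed to 467.5, 1183 and 417 CPM in control replicates 1, 2 and 3, and to 2878, 3478 and 552 in SvbREP. The sums were 1311, 538 and 365 in the svb RNAi-labelled libraries, and 767, 829.5 and 492 in SvbACT. AstA was at 0 in every SvbACT library and CCHa2 in every svb RNAi-labelled library. AstA was also at 0 in replicates 1 and 3 of control and of svb RNAi, and in SvbREP replicates 1 and 2. CCHa2 was also at 0 in control replicate 2, SvbACT replicate 3 and SvbREP replicates 1 and 2. SvbREP against control gave a log2 fold change of 1.52 (95% interval -0.11 to 3.15, edgeR adjusted p = 0.318). SvbREP exceeded the svb RNAi-labelled libraries by 2.78 in log2 (SE 0.83, edgeR adjusted p = 0.0246). That call was lost without svb RNAi replicate 3 (2.19, edgeR adjusted p = 0.0651), SvbREP replicate 1 (2.71, 0.0594), SvbREP replicate 2 (2.18, 0.114) or the enteroendocrine-high libraries (1.11, 0.560). SvbACT exceeded the svb RNAi-labelled libraries by 1.94 (edgeR adjusted p = 0.132), or by 2.20 with the replicate block (0.00823).

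**Figure D3:**
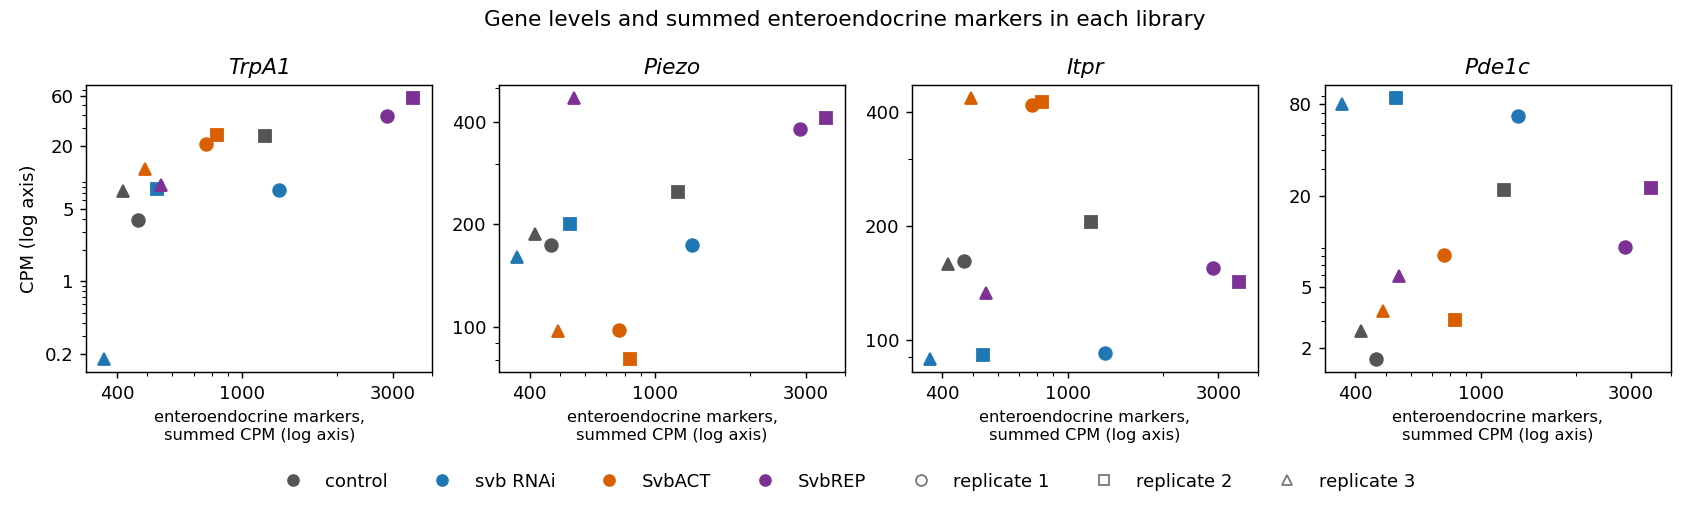
CPM of TrpA1, Piezo, Itpr and Pde1c (y axes, log) against the summed CPM of 12 enteroendocrine markers (x axis, log) in the 12 libraries; colours give the group and symbols the replicate. TrpA1 reached 58.0 CPM in the library with the highest sum, 3478 CPM. Piezo in SvbREP was 379 and 409 CPM at the 2 high sums and 469 at the low one, and no SvbACT library had a sum above 1000 CPM.

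Pde1c (FBgn0264815, chromosome 2L, 11814156 to 11928572, minus strand), a calmodulin-activated enzyme that breaks down cyclic nucleotides, was the most changed of the 10 genes in the svb RNAi-labelled libraries. Its counts were 9, 121 and 16 in control and 304, 491 and 450 in the svb RNAi-labelled libraries, or 1.68, 21.7 and 2.57 CPM against 67.0, 87.8 and 79.8. SvbACT held 8.18, 3.04 and 3.502 CPM, and SvbREP 9.17, 22.6 and 5.95. Every svb RNAi-labelled library lay above the other 9. The rise against control was 9.06-fold (log2 3.18, SE 0.68, 95% interval 1.73 to 4.63, edgeR adjusted p = 0.00307). Control replicate 2, also the control with the most ovo counts, decided its size: without that library it was 5.17 in log2 (edgeR adjusted p = 7.79e-06), and without all enteroendocrine-high libraries 5.26 (2.45e-06). Pde1c was also lower in SvbACT than in the svb RNAi-labelled libraries, at a log2 difference of -4.02 (edgeR adjusted p = 8.84e-04), and lower in SvbREP, at -2.66 (0.00946). Neither overexpression group passed the test against control, at -0.84 in SvbACT (edgeR adjusted p = 0.612) and 0.52 in SvbREP (0.757). Without control replicate 2 these became 1.15 (edgeR adjusted p = 0.281) and 2.51 (0.0189), and without SvbREP replicate 2 the SvbREP value was -0.23 (0.944).

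CaMKII (FBgn0264607, chromosome 4, 1035288 to 1053703, minus strand), the calcium and calmodulin dependent kinase, was higher in the svb RNAi-labelled libraries. Its CPM was 204, 138 and 213 in control and 285, 248 and 289.5 in the svb RNAi-labelled libraries. SvbACT held 162, 172 and 207, and SvbREP 140.2, 146 and 197. Every svb RNAi-labelled library lay above the other 9, which overlapped. The rise over control was 0.57 in log2 (SE 0.17, 95% interval 0.21 to 0.92, edgeR adjusted p = 0.0242). The call was lost without control replicate 2 (0.40, edgeR adjusted p = 0.0871), svb RNAi replicate 1 (0.54, 0.0698), svb RNAi replicate 3 (0.53, 0.0812) or the enteroendocrine-high libraries (0.36, 0.109). SvbREP was lower than the svb RNAi-labelled libraries by a log2 difference of -0.76 (edgeR adjusted p = 0.00402), lost without the enteroendocrine-high libraries (-0.43, 0.174). SvbACT was lower, at -0.60 (edgeR adjusted p = 0.0199). That call was lost without svb RNAi replicate 1 (edgeR adjusted p = 0.0613) or 3 (0.0715), or SvbACT replicate 1 (0.091) or 2 (0.0644).

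CanA-14F (FBgn0267912, chromosome X, 16560684 to 16587172, minus strand), a catalytic subunit of calcineurin, split by replicate number more than by group. Its CPM was 795, 486 and 797 in control, 701, 532 and 834 in the svb RNAi-labelled libraries and 787, 537 and 841 in SvbACT, with replicate 2 the lowest each time. SvbREP held 424, 424.5 and 585, the highest of which exceeded replicate 2 of each other group. With all 12 libraries and no block, no comparison passed the edgeR test. The log2 difference between SvbACT and SvbREP was 0.59 (95% interval 0.13 to 1.06, edgeR adjusted p = 0.093). With the replicate block, which assumes a pairing that the labels do not state, it was 0.58 (edgeR adjusted p = 0.00114). It was also called without SvbACT replicate 2 (0.77, edgeR adjusted p = 0.0359) or SvbREP replicate 3 (0.77, 0.0427) and with DESeq2 (0.58, DESeq2 adjusted p = 0.0484), and the authors' deposited table called it, with an unadjusted p of 0.00557. It was not called under the other 10 of the 14 alternatives, which include leaving out the enteroendocrine-high libraries. Over all 14 the log2 difference ranged from 0.29 to 0.77. Its neighbour Pp2B-14D encodes a closely related subunit, so how counting split their shared reads is uncertain.

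CrebB (FBgn0265784, chromosome X, 18366357 to 18377864, plus strand), the transcription factor that binds cyclic AMP response elements, was lower in the svb RNAi-labelled libraries. Its CPM was 338, 344 and 369.6 in control and 228, 227 and 265 in the svb RNAi-labelled libraries. SvbACT held 303, 321 and 329, and SvbREP 262, 294 and 238. All control libraries lay above all others, and the svb RNAi-labelled libraries overlapped with SvbREP. The fall against control was 1.46-fold in the svb RNAi-labelled libraries (log2 -0.55, SE 0.11, edgeR adjusted p = 0.00147). In SvbREP it was -0.41 in log2 (SE 0.11, edgeR adjusted p = 0.0443). That call was lost without control replicate 1 (edgeR adjusted p = 0.0773), 2 (0.0566) or 3 (0.185), SvbREP replicate 1 (0.142) or 3 (0.107), or the enteroendocrine-high libraries (-0.56, 0.143), where 1 SvbREP library remains. SvbACT against control gave -0.14 (95% interval -0.37 to 0.08, edgeR adjusted p = 0.525). SvbACT exceeded the svb RNAi-labelled libraries by 0.40 (edgeR adjusted p = 0.0141), a call lost without svb RNAi replicate 1 (0.0607) or 2 (0.0618), or SvbACT replicate 3 (0.0502). The exons of por cover 6.89% of those of CrebB, and por had at most 116 counts where CrebB had at least 772.

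Ordered by mean, Itpr stood at 426.5 ± 9.70 CPM (SD, n = 3) in SvbACT, 175 ± 25.6 in control, 143 ± 10.7 in SvbREP and 90.5 ± 1.76 in the svb RNAi-labelled libraries. Of these neighbours, control and SvbREP did not pass the test. Piezo ran from 419 ± 45.6 CPM in SvbREP through 204 ± 40.1 in control and 178 ± 20.5 in the svb RNAi-labelled libraries to 92.1 ± 10.1 in SvbACT, and the middle pair did not pass. For Orai only the step from SvbREP (75.5 ± 14.1) down to the svb RNAi-labelled libraries (38.6 ± 3.24) passed. For Pde1c only the step from the svb RNAi-labelled libraries (78.2 ± 10.5) down to SvbREP (12.6 ± 8.80) did, and for CaMKII only that from the svb RNAi-labelled libraries (274 ± 22.9) to control (185 ± 40.7). No neighbouring step passed for SERCA, Stim, TrpA1, CanA-14F or CrebB.

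Levels between genes were compared as mean control CPM per kb of exon. On this scale CanA-14F (83.9) and CrebB (70.2) were the most abundant, SERCA (40.5), CaMKII (40.3) and Stim (32.6) followed, and Piezo (18.7), Itpr (16.9) and Orai (16) were lower. TrpA1 (2.30) and Pde1c (1.085) were the scarcest. With the length of the longest transcript instead, CrebB (99.7) came above CanA-14F (87.0) and Orai (18.6) above Itpr (16.98).

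The surrounding pathway was taken from role lists of 62 other calcium and cyclic nucleotide genes, of which 49 were in the table and 46 were tested. These lists were also chosen with earlier results of these data known, so their shares only describe the listed genes. Of the 46 genes 2 in the svb RNAi-labelled libraries were higher and 16 lower than in control, or 39.1% called, beside 20.4% of all genes. Their median log2 fold change was -0.25, against 0.02 for all genes. Of the 10 cyclic nucleotide enzymes 7 were lower, none was higher, and the median was -0.77. In SvbACT 4 of the 46 were higher and 5 lower (19.6% called, beside 9.15% of all genes), and in SvbREP 1 was higher and 5 lower (13% called, beside 4.05%).

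**Figure D4:**
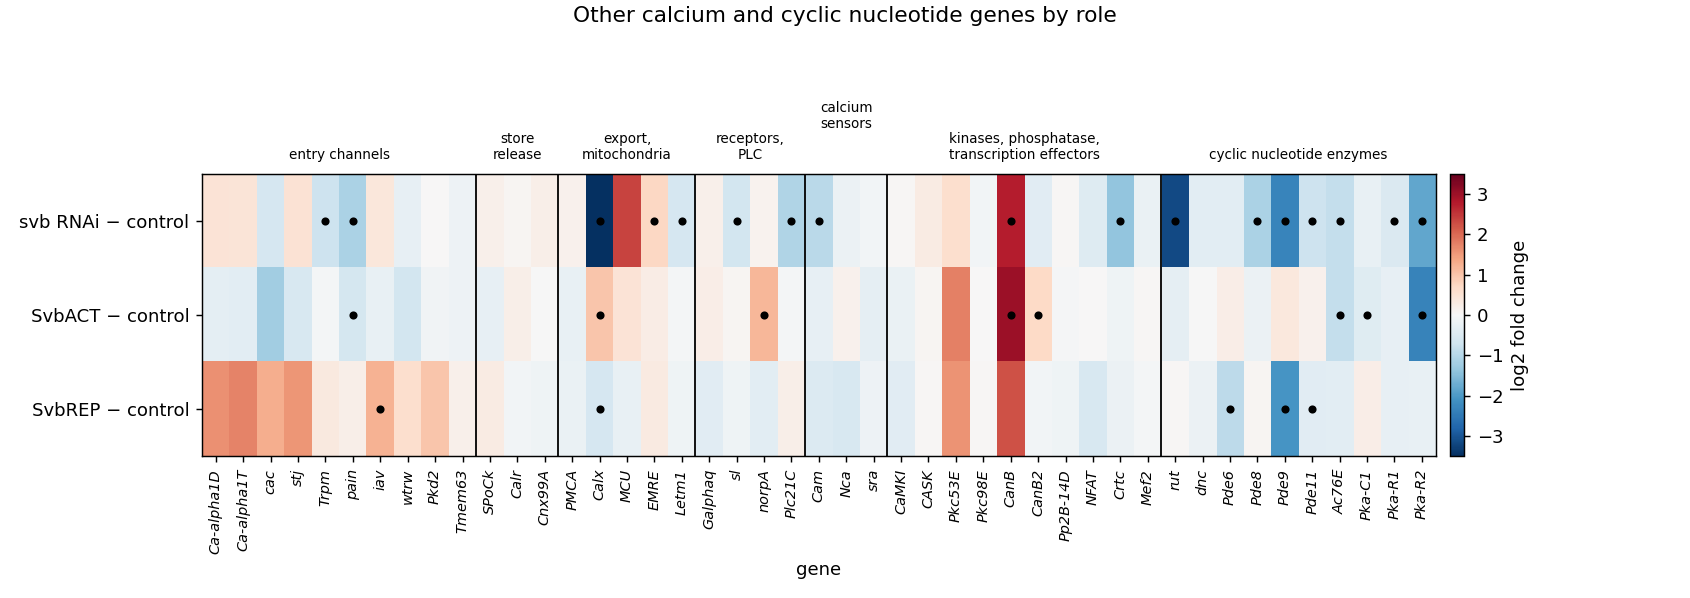
Log2 fold changes against control (colour scale) of 45 of the 46 other calcium and cyclic nucleotide genes that were tested (x axis, grouped by role) in the 3 comparisons (y axis); a dot marks a gene called by edgeR. In the svb RNAi-labelled libraries 7 of the 10 cyclic nucleotide enzymes carry a dot on a negative value.

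Calx, the sodium and calcium exchanger that exports calcium, had the same order of groups as Itpr. It stood at 469 ± 35.6 CPM (SD, n = 3) in SvbACT, 240.4 ± 27.1 in control, 159 ± 22.5 in SvbREP and 21.4 ± 5.53 in the svb RNAi-labelled libraries. Against control it fell by 3.48 in log2 in the svb RNAi-labelled libraries (edgeR adjusted p = 2.29e-09) and rose by 0.96 in SvbACT (6.30e-04). In SvbREP it was -0.59 (edgeR adjusted p = 0.0428), a call lost without control replicate 2 (0.0566) or 3 (0.194), or SvbREP replicate 1 (0.144) or 3 (0.0991). It was also lost with RLE scaling (0.0523) or only the compared groups in the fit (0.0543).

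Upstream of Itpr, phospholipase C makes the inositol trisphosphate that opens it. norpA, a phospholipase C known from fly phototransduction, was 295 ± 41.5 CPM in SvbACT against 132 ± 8.15 in control (log2 1.16, edgeR adjusted p = 8.95e-06). It exceeded SvbREP (102 ± 8.14) by 1.54 in log2 (edgeR adjusted p = 3.25e-07). Plc21C, another enzyme of this class, was lower in the svb RNAi-labelled libraries by a log2 fold change of -1.05 (edgeR adjusted p = 4.52e-04). Of 4 receptor and phospholipase genes tested, 2 were lower and none higher in the svb RNAi-labelled libraries, and norpA alone was called in SvbACT. Of all genes tested, 13.7% were lower in the svb RNAi-labelled libraries and 9.15% were called in SvbACT, each against control.

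Around CrebB, its coactivator Crtc was lower in the svb RNAi-labelled libraries, at 207 ± 22.5 CPM against 542 ± 41.4 in control (log2 -1.39, edgeR adjusted p = 3.50e-06). The adenylyl cyclase rut, which calcium and calmodulin stimulate, fell from 279 ± 10.4 to 31.3 ± 11.3 CPM (log2 -3.15, edgeR adjusted p = 4.30e-08). The cyclase Ac76E was lower in the svb RNAi-labelled libraries (log2 -0.82, edgeR adjusted p = 0.00179) and in SvbACT (-0.84, 0.00342). SvbACT and SvbREP differed by -0.48 in log2 without a call (edgeR adjusted p = 0.0719), and called with the replicate block (-0.49, 0.0229), with DESeq2 (-0.49, DESeq2 adjusted p = 0.0366), with the filter of 10 CPM (-0.50, edgeR adjusted p = 0.0476) and without SvbACT replicate 3 (-0.70, 0.00828). Pka-R2, a regulatory subunit of protein kinase A, was also lower in both, at -1.82 (edgeR adjusted p = 5.14e-05) and -2.33 (1.95e-05). The phosphodiesterases Pde11 (-0.72, edgeR adjusted p = 6.01e-05) and Pde9 (-2.31, 0.00329) were lower in the svb RNAi-labelled libraries, where Pde1c was higher. Pde9 had 2 to 35 counts there and 76 to 126 in control, so the size of its fall is uncertain.

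In SvbREP, Pde6 was lower than in control (log2 -0.92, edgeR adjusted p = 0.00416), a call lost without the enteroendocrine-high libraries (-0.61, 0.192). Pde9 was lower there, at -2.05 (edgeR adjusted p = 0.0325), lost without control replicate 2 (0.0555) or 3 (0.115), or SvbREP replicate 2 (0.116) or 3 (0.0796). The SvbREP libraries held 15 to 20 Pde9 counts, so the size of this fall is uncertain too. Pde11 was lower, at -0.38 (edgeR adjusted p = 0.0396), lost without control replicate 1 (0.0773) or 3 (0.200), any of SvbREP replicates 1 (0.173), 2 (0.091) and 3 (0.0509), or the enteroendocrine-high libraries (-0.38, 0.384). It was also lost with RLE scaling (0.0512), upper quartile scaling (0.0581) or only the compared groups in the fit (0.106). CanB2, a regulatory subunit of calcineurin, was higher in SvbACT (113 CPM against 69.6 in control, log2 0.70, edgeR adjusted p = 0.0288). That call was lost without control replicate 2 (0.0871), SvbACT replicate 1 (0.0997) or 3 (0.111), or the enteroendocrine-high libraries (0.0734).

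Among the other entry channels, pain, a channel of the TRP family known from nociception, stood at 766 ± 21.5 CPM in control, 358 ± 24.9 in the svb RNAi-labelled libraries and 501 ± 48.1 in SvbACT. Both were lower than control, at -1.10 (edgeR adjusted p = 1.03e-06) and -0.61 (8.36e-04) in log2. Trpm, a TRP channel of the melastatin class, was lower in the svb RNAi-labelled libraries (-0.73, edgeR adjusted p = 0.00168). In SvbREP all 10 entry channels tested had a positive log2 fold change against control, with a median of 1.09, beside -0.003 for all genes. Only iav was called, at 1.21 (edgeR adjusted p = 0.0312), where 4.05% of all genes were called. SvbREP replicates 1 and 2 were enteroendocrine-high, and their part in the shared direction was not tested. The iav call was lost with only the compared groups in the fit (1.21, edgeR adjusted p = 0.0913), and without control replicate 1 (0.1003) or 3 (0.140), SvbREP replicate 1 (0.136) or 2 (0.126), or the enteroendocrine-high libraries (0.535). Ca-alpha1T, a voltage-gated channel named after its values were seen, held 103, 209 and 18.9 CPM in SvbREP replicates 1, 2 and 3 and 11.9, 68.8 and 17.7 in control. As for TrpA1, its high libraries in these groups were the enteroendocrine-high ones.

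The genes most like each called gene were taken by Pearson r of log2 CPM over the 12 libraries, among 7991 genes, as a description of libraries that share 4 groups. Itpr was nearest to Arp2 (r = 0.987), oys (0.975) and rho-4 (0.975), and Orai to stx (0.976), p130CAS (0.973) and app (0.969). Piezo was nearest to Gdh (0.975), nahoda (0.938) and hbs (0.938). Gdh ran at 475 CPM in SvbREP, 238 in control, 225 in the svb RNAi-labelled libraries and 97.1 in SvbACT, the order of Piezo. Pde1c was nearest to Usp47 (0.947), LRP1 (0.933) and Mical (0.915), and CaMKII to qkr58E-2 (0.946), kra (0.943) and lgs (0.940). CrebB was nearest to CG15611 (0.956), CG2865 (0.954) and lncRNA:CR43650 (0.946). Stim was nearest to wech (0.916), wupA (0.9096) and CG12547 (0.901), and TrpA1 to CG9801 (0.914), tinc (0.901) and CG1275 (0.888). The gene wupA, also a listed visceral muscle marker, had 25 to 29 counts in SvbACT. Its counts were 4 to 6 in control, 0 to 6 in the svb RNAi-labelled libraries and 0 to 8 in SvbREP. Its r therefore rests largely on the SvbACT libraries.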

How the data were processed

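The authors deposited whole-number counts per gene for 12 libraries, with no normalization, in a table that also holds their own log2 fold changes, unadjusted p-values and call scores (the authors' coding of higher, lower or not called). Per the submitters' processing notes, FastQC 0.11.5, STAR 2.5.2b, HTSeq 0.6.0, edgeR and genome build dm6 were used, with no role or order given. The strand setting and gene filter are not given in the sources used here. Per the labels, sequencing was single-end on libraries from an Ovation SoLo kit.

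Counts were tested in all 12 libraries with edgeR 4.0.16 in R 4.3.3 (glmQLFit, glmQLFTest, TMM factors, 1 mean per group). The filter filterByExpr (minimum count 10, total 15, proportion 0.7) kept 7992 genes. Benjamini-Hochberg adjustment ran over those genes, and calls needed an adjusted p under 0.05. Each SE was taken as the size of the log2 fold change over the root of its F statistic, CPM uses the TMM factors, and log2 CPM a prior count of 2. The scripts were tested on simulated data. The p-values measure the spread between 3 pooled batches of flies per group, which the design text calls biological replicates made on different days. Coordinates and exon lengths come from Ensembl release 115 (BDGP6.54), with names matched by gene identifier. Promoter motifs were not analysed here.

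The 10 genes and all lists were chosen with earlier results of these data known. Genes named are those 10, at most the 6 other listed calcium genes with the smallest p among those called in each comparison, and for each of the 10 that was called the 3 genes most like it. Cell markers and Ca-alpha1T are named beside the results they touch. Of the other listed genes 1 that meets this rule is not reported here and not drawn, though it is counted with its list.

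Replicate numbers come from the titles. Deviations from group means of same-numbered libraries correlated at 0.113, 0.248 and 0.189 in SvbACT and control, 0.103, 0.127 and 0.199 in SvbACT and SvbREP, and 0.182, 0.185 and 0.221 in SvbACT and svb RNAi. All exceed 0.1, so in these 3 comparisons the numbers were taken to pair the libraries, and the fit with the replicate block is given where it changes a call of a named gene. The pairing is uncertain, because numbers that pair SvbACT with each other group should also pair those groups with each other. Between those groups not all correlations exceeded 0.1. The model without a block is the main one because the labels name none. Alternatives were RLE and upper quartile scaling, no filter, a filter of 10 CPM in 3 libraries, DESeq2 1.42.0, the replicate block, only the compared groups, and leaving out each library. Leaving out the 4 libraries with the most enteroendocrine marker RNA was added after seeing the data. Over 50 pairs of gene and comparison, the calls in the authors' deposited table matched those here in 49, with log2 fold changes differing by at most 0.035.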

Additional observations from a re-analysis of the deposited data

How the results depend on the processing

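Of the 25 calls made for the 10 calcium genes over the 6 comparisons, 17 were called under every alternative run and 8 were lost under at least 1, and none changed sign. The 17 include all calls of Itpr, Orai, Piezo and Pde1c and that of CrebB in the svb RNAi-labelled libraries against control. In SvbREP against control, 1 of the 10 genes, Piezo, was called with RLE scaling, upper quartile scaling, only the compared groups or the enteroendocrine-high libraries left out, and 1 to 2 genes were called with each library left out. CrebB was then at -0.39 with RLE scaling (edgeR adjusted p = 0.0568) and -0.38 with upper quartile scaling (0.0546). Upper quartile scaling also ended the call of Stim between SvbACT and the svb RNAi-labelled libraries (0.36, edgeR adjusted p = 0.0631), and moved the median of all genes by 0.1039 in log2 in the svb RNAi-labelled libraries against control. The cause was not tested.

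The number of all genes called in SvbREP against control was 324, and became 545 with DESeq2, 663 with the replicate block and 121 without the enteroendocrine-high libraries. Leaving those libraries out also gave 545 genes in SvbACT against SvbREP (1050 before) and 832 in SvbREP against the svb RNAi-labelled libraries (1822 before), where SvbREP has 1 library. With each library left out in turn, genes called ranged over 173 to 469 in SvbREP against control, 461 to 687 in SvbACT against control, 700 to 1140 in SvbACT against SvbREP, 1179 to 1583 in the svb RNAi-labelled libraries against control, 1066 to 1215 in SvbACT against the latter and 1359 to 1907 in SvbREP against the latter. Of the 10 genes 4 to 5 were called in the svb RNAi-labelled libraries against control, 2 to 3 in SvbACT against control, 2 to 5 in SvbACT against SvbREP, 4 to 6 in SvbACT against the svb RNAi-labelled libraries and 5 to 7 in SvbREP against them. The share of higher calls was 68.9% in SvbACT against the svb RNAi-labelled libraries, and 55.3% with upper quartile scaling.

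In the comparisons without SvbACT the replicate numbers were not taken to pair the libraries. Over all 6 comparisons, 3 of the 18 correlations of same-numbered libraries were at 0.1 or below. All 3 lay in comparisons without SvbACT, at 0.067 and -0.081 for replicate 1 and 0.014 for replicate 2. Of 12 libraries 11 correlated best with their own number. In the comparisons without SvbACT, the replicate block gave 2044 genes and 5 of the 10 in the svb RNAi-labelled libraries against control. It gave 3 of the 10 in SvbREP against control, and 2244 genes and 7 of the 10 in SvbREP against the svb RNAi-labelled libraries. The added calls were CanA-14F, at -0.51 against control (edgeR adjusted p = 0.00686) and -0.51 against the svb RNAi-labelled libraries (0.00183). Of 14 alternatives, 13 gave no call against control and 12 none against the svb RNAi-labelled libraries. Leaving out the enteroendocrine-high libraries was among those in both comparisons. In the comparisons taken as paired the block changed no call of the 10 genes other than those of Stim, CanA-14F and TrpA1 given above.

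Depth limits TrpA1 and Pde1c most, with as few as 1 and 9 counts in a library, while the other 8 genes had at least 174. Counts cannot be assigned to strand here, so genes that overlap others on the opposite strand carry that uncertainty.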

Other observations

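Calmodulin and the calcineurin regulatory subunit CanB were named after their values were seen, and neither was called among the 4 groups (edgeR adjusted p = 0.0836 for Cam and 0.0545 for CanB). Cam, which encodes calmodulin, the sensor that CaMKII, calcineurin and Pde1c share, held 547, 262 and 483 CPM in control replicates 1, 2 and 3 and 248, 168 and 262 in the svb RNAi-labelled libraries. It was 1.91-fold lower there (log2 -0.93, SE 0.27, edgeR adjusted p = 0.0238), with control replicate 2 level with the highest svb RNAi-labelled library. In SvbACT it held 414, 213 and 423 CPM, with the lowest level again in replicate 2, and neither SvbACT (edgeR adjusted p = 0.621) nor SvbREP (0.390) passed the test against control.

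CanB had 1 to 2 counts in each control library, under the floor of 3 counts. It had 10 to 12 counts in the svb RNAi-labelled libraries, 11 to 14 in SvbACT and 2 to 8 in SvbREP. It was called higher in the svb RNAi-labelled libraries (edgeR adjusted p = 0.0274) and in SvbACT (0.0326), and not in SvbREP (0.183). Counts this low leave the size of those differences uncertain, and no fold is given.

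Of the 8 enteroendocrine markers tested, 2 were lower and none higher in the svb RNAi-labelled libraries than in control. Of all genes tested, 13.7% were lower and 6.74% higher in that comparison. The summed markers averaged 738 CPM in the svb RNAi-labelled libraries and 689 in control. Syt4 was lower than control in each other group, at 40.8 ± 2.48 CPM (SD, n = 3) in control and 1.73 ± 1.02, 1.33 ± 0.984 and 1.79 ± 1.88 in the svb RNAi-labelled libraries, SvbACT and SvbREP. The hormone gene Tk was the other one (log2 -3.40, edgeR adjusted p = 0.00118). AstC, another hormone gene, averaged 53.4 CPM there and 15.1 in control without passing the test (edgeR adjusted p = 0.285), and IA-2 was at 2.20 in SvbREP against control (0.0511).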
